A study of Oryctolagus cuniculus with 12 samples.

Results

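The effect of osteoarthritis (OA) was compared between 2 layers of the mandibular condyle, the end of the jaw bone in the temporomandibular joint, in the rabbit. For each gene the OA effect was the log2 fold change from control to OA, and the comparison was the effect in the condylar cartilage minus the effect in the superficial zone, here called the interaction. It used all 12 of the 12 libraries, with 3 libraries in each of 4 groups: control superficial zone, OA superficial zone, control condylar cartilage and OA condylar cartilage. All libraries were labelled WT, and RNA was extracted from tissue, although titles speak of cells of each zone. OA was induced by surgery, in which a biopsy punch made a hole of 2.5 mm in the joint disc and left its attachments whole. The labels give no age, time after surgery or animal, and do not say whether control joints were opened or whether a joint gave tissue of both zones. A positive interaction can come from a higher level with OA in the condylar cartilage, a lower level with OA in the superficial zone, or both, so the effect in each zone stands beside it.

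The superficial zone of the condyle is a fibrous layer under the joint fluid, with flattened cells that make lubricin and with progenitors that divide to replenish the cartilage. The condylar cartilage below it holds chondrocytes that mature, enlarge and mineralise their matrix where the cartilage meets bone. Cartilage has no vessels of its own, while the bone beneath carries vessels, osteoclasts and blood-forming marrow. Roles of genes are given as known from human and mouse.

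Libraries held 7326255 to 16769536 counts. Condylar cartilage libraries 1 and 2 with OA, and superficial zone libraries 2 and 3 with OA, were near-duplicates, with biological coefficients of variation of 0.060 and 0.042 against 0.216 to 0.631 in the other pairs within groups. Each such pair was summed to 1 sample, which gave n = 3 in each control group and n = 2 in each OA group. Statements that groups overlap or lie apart compare all 12 libraries, so near-duplicates count there as separate libraries. The lubricin gene PRG4 stood at 167 to 280 CPM (counts per 1000000, scaled by TMM) in control superficial zone and at 18.9 to 40.7 CPM in control condylar cartilage. A pair of libraries stood apart from their groups. OA superficial zone 1 held 51233 CPM of COL2A1, the cartilage collagen gene, where libraries 2 and 3 held 2511 and 2583 CPM. Control condylar cartilage 3 held 935 CPM of it, where libraries 1 and 2 held 42753 and 56682 CPM. The skeletal muscle actin gene ACTA1 was at 5.47, 1.76 and 937 CPM in control condylar cartilage 1 to 3 and at 107, 707 and 696 CPM in OA superficial zone 1 to 3. ACAN, aggrecan, was likewise lowest in control condylar cartilage 3, at 435 CPM beside 9364 and 11297 CPM, so the cartilage markers of that library go against its label. COL2A1 and ACAN of OA superficial zone 1 go against its label too, with ACAN at 15133 CPM beside 2012 and 2031 CPM. Its PRG4, at 239 CPM, lay within the range of control superficial zone, and its TMM factor of 0.677 was the lowest of all libraries. Main results are therefore given with and without this pair of libraries. Without the pair, OA superficial zone was left with 1 sample, the sum of libraries 2 and 3, so no spread could be measured in that group. Scaling by library totals in place of TMM moved the median interaction of all genes from −0.02 to 0.50, so changes are read relative to other genes. Titles call replicates biological without naming animals, so p-values reflect only how these samples vary, which may be technical. In bulk RNA fewer cells of a type and less RNA per cell cannot be told apart.

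No gene passed the test of the interaction. The lists of mitosis and of DNA replication genes had positive values in every member tested, with lower levels in OA in the superficial zone, and held 7 of the 12 positive genes of smallest p. The endothelial list was negative in 17 of 18 members and held ROBO4 and FLT4, 2 of the 12 negative genes of smallest p. Of 14438 genes tested by edgeR, 0 passed an adjusted p of 0.05 in either direction (0%), and the lowest adjusted p was 0.245. At an unadjusted p under 0.05 there were 1265 genes (8.76%), of which 508 were positive (3.52%) and 757 negative (5.24%), where 722 would come by chance. Across all genes 49.1% of interactions were positive, and the median absolute interaction was 0.60 beside a median SE of 0.65. The SE of each zone's own effect had a median of 0.46. In the condylar cartilage 118 genes rose (0.817%) and 7 fell (0.0485%), and in the superficial zone 3 rose (0.0208%). These counts hang on single libraries: 0 genes passed in the condylar cartilage without its control library 1 and 224 without OA superficial zone 1, and in the superficial zone 0 to 51 passed when any single library was left out.

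The number of genes that passed differed with the test, with how the near-duplicates were counted and with the libraries kept. Where OA superficial zone 1 was left out, that group was 1 sample, and its spread was taken from the other groups. With the near-duplicates entered as 12 separate libraries, 98 genes passed, 77 positive and 21 negative. That fit treats near-duplicates as independent replicates, which can make its p-values too small. DESeq2 on the 10 samples passed 116 genes, 77 positive and 39 negative. Leaving out OA superficial zone 1 and control condylar cartilage 3 passed 97 genes, 84 positive and 13 negative. Leaving out any single library passed 0, with 791 to 1379 genes under an unadjusted p of 0.05, and limma-voom with sample weights also passed 0, with 834. The 98 and 116 genes were 0.674% and 0.803% of those tested. Genes of mitosis and cytokinesis made up 17 of the 98 and 17 of the 116, out of 37 on the list. Genes of DNA replication made up 8 and 9, out of 35, and endothelial genes on the negative side 2 and 3, out of 18.

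**Figure D1:**
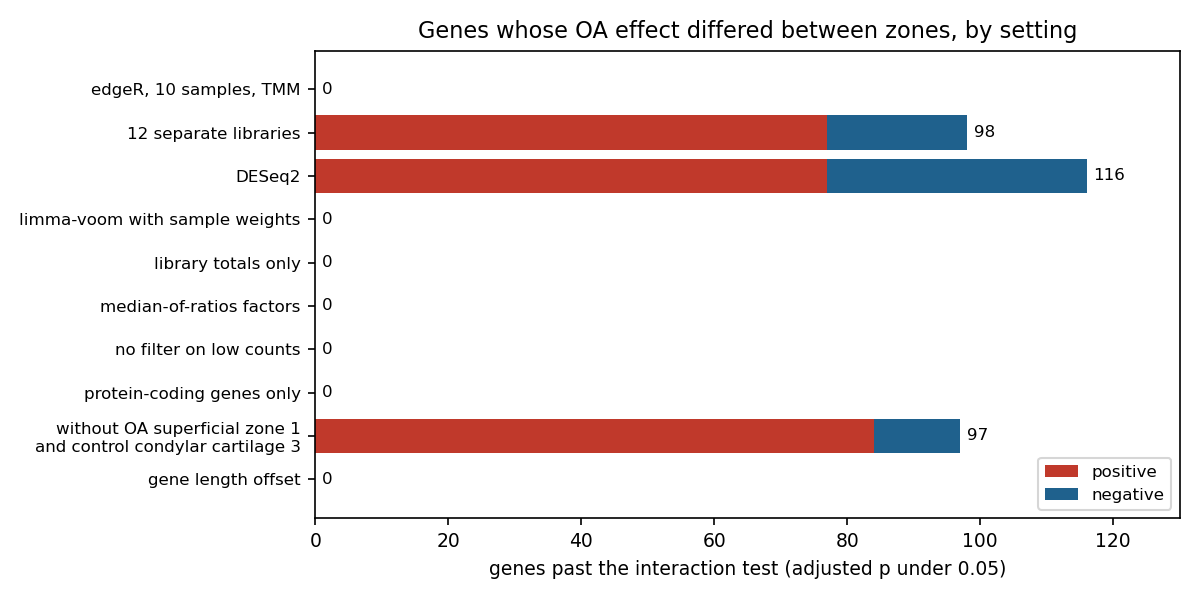
Bars give the number of genes past an adjusted p of 0.05 for the interaction under 10 settings, with positive interactions in red and negative ones in blue. The count was 98 with 12 separate libraries, 116 with DESeq2 and 97 without the pair of libraries that stood apart, and 0 under the others shown.

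The OA effects of the zones were only loosely related across genes. Across the 14438 genes, which are not independent replicates, Pearson's r between the zones' log2 fold changes was 0.22 and Spearman's rho was 0.043, and 52.1% of genes had opposite signs. The groups share no library between zones. In the plot of one zone's effect against the other, erythroid genes lie high on the vertical axis and mostly right of 0 (a superficial zone median of 2.02, and of 0.29 without OA superficial zone 1), cell division genes lie left of 0 and near or above it on the vertical axis, and endothelial and skeletal muscle genes lie mostly at the lower right.

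**Figure D2:**
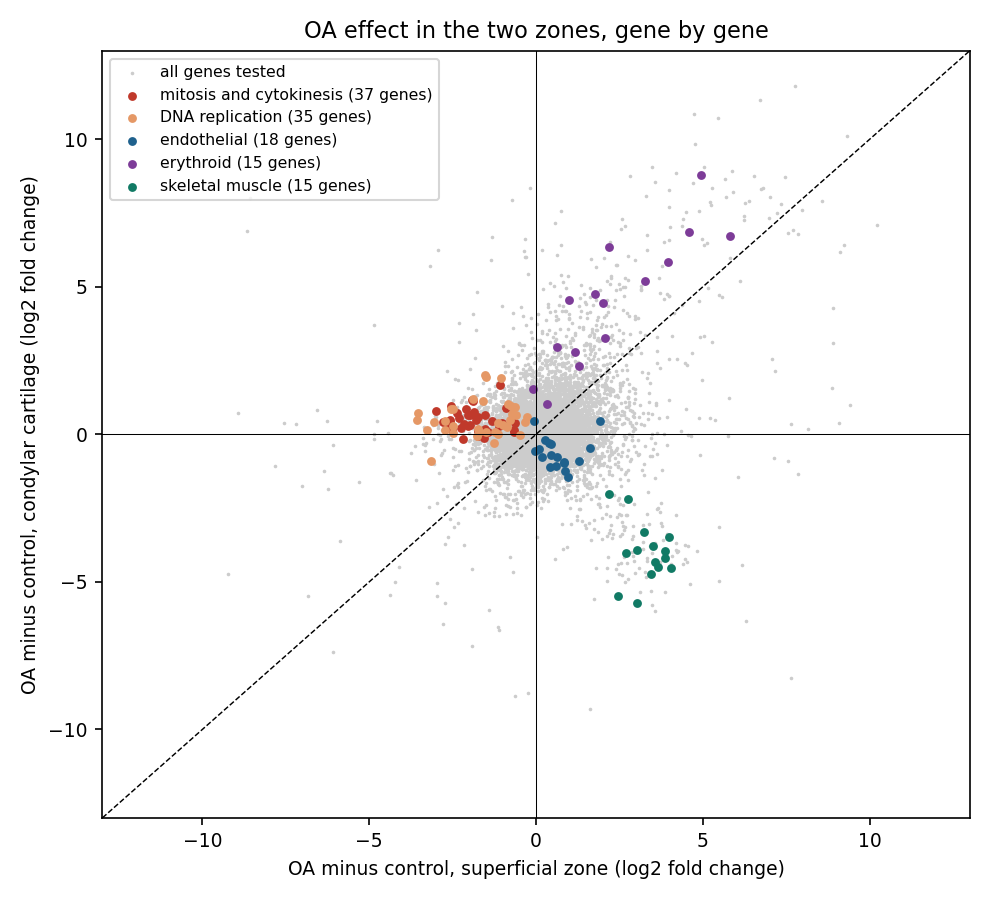
Each point is a gene, with the log2 fold change from control to OA in the superficial zone on the horizontal axis and in the condylar cartilage on the vertical axis, and the dashed line marks equal effects. All 37 mitosis genes and 35 replication genes lie above the line, and all 15 skeletal muscle genes lie below it.

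Genes of mitosis and cytokinesis had positive interactions throughout. All 37 members tested had a positive value, 31 of them at an unadjusted p under 0.05 against 3.52% of all genes, and the median was 2.33 against −0.02 over all genes. The difference lay mostly in the superficial zone: every member was lower there with OA, with a median log2 fold change of −1.89, and in 35 of the 37 no OA library overlapped a control library (7.69% of all genes were separated in that direction). Without the pair of libraries that stood apart the superficial zone median was −2.38. Counts of rRNA genes were also higher in OA superficial zone, at 2.18%, 4.44% and 2.89% of all counts, than in control superficial zone, at 0.345%, 1.09% and 1.04%, and stood at 0.712% to 1.95% in the condylar cartilage. The part of rRNA content in the result was not tested. In the condylar cartilage 34 of 37 were above 0, the median being 0.42, and 5 were separated upwards (15.1% of all genes). The median difference between condylar cartilage and superficial zone was 0.08 in control and 2.36 in OA. The list's median was 2.56 without the pair of libraries that stood apart, 2.93 with scaling by library totals (all genes 0.50), and 2.18 to 2.65 when any single library was left out.

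The members of smallest p serve the spindle, its checkpoint and the exit from mitosis. TPX2, which builds the mitotic spindle and activates Aurora A kinase, was at 27.8, 29 and 23.8 CPM in control and 5.52, 5.14 and 4.74 CPM in OA superficial zone. TPX2 in condylar cartilage was at 29.3, 34.3 and 20.5 CPM in control and 58, 60.9 and 33.1 CPM in OA. Its OA libraries lay below all controls in the superficial zone, and in the condylar cartilage the third OA library fell within the control range. The effect was −2.37 ± 0.38 (log2, SE) in the superficial zone and 0.72 ± 0.34 in the condylar cartilage, and the interaction was 3.09 ± 0.50 (adjusted p = 0.245) and 3.01 without the libraries that stood apart. KNTC1, a kinetochore protein that recruits dynein, was at 23.8, 40.2 and 27.7 CPM in control and 5.38, 4.9 and 5.01 CPM in OA superficial zone, against 30.4, 35.4 and 16.7 CPM in control and 47.8, 41.3 and 31.6 CPM in OA condylar cartilage, with the same overlap. UBE2C, the ubiquitin-conjugating enzyme of the anaphase-promoting complex, was at 5.45, 4.74 and 2.83 CPM in control and 0.69, 0.233 and 0.647 CPM in OA superficial zone. UBE2C in condylar cartilage was at 3.65, 5.27 and 4.15 CPM in control and 9.38, 10.7 and 4.95 CPM in OA. ANLN, the actin-binding protein of the cleavage furrow, was at 35.6, 46 and 32 CPM in control and 6.07, 6.89 and 7.28 CPM in OA superficial zone, against 29.3, 34.9 and 15.8 CPM in control and 34.2, 34.1 and 25.6 CPM in OA condylar cartilage. For all 3 the superficial zone groups were apart and the condylar cartilage groups overlapped, and their interactions were 3.03 ± 0.55, 3.77 ± 0.73 and 2.68 ± 0.53. CDCA2, which is not on the list and brings a phosphatase to chromosomes at mitotic exit, had 2.87 ± 0.55.

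NEK2, KIF14 and KIF15 are also genes of mitosis, not on the list, and their OA libraries lay on opposite sides of control in the zones, with no overlap in either. NEK2, a kinase that splits the centrosomes, was at 7.24, 3.13 and 2.41 CPM in control and 0.552, 0.992 and 1.02 CPM in OA superficial zone. NEK2 in condylar cartilage was at 3.5, 2.93 and 2.47 CPM in control and 14.8, 12.1 and 7.93 CPM in OA. The OA condylar cartilage libraries were the highest of the 12 and the OA superficial zone libraries the lowest, and the interaction was 4.20 ± 0.80, or 3.84 without the libraries that stood apart. KIF14, a kinesin of cytokinesis, was at 5.23, 8.33 and 6.71 CPM in control and 2.21, 1.81 and 1.83 CPM in OA superficial zone, against 7.91, 10.7 and 6.06 CPM in control and 27.2, 26.8 and 14.5 CPM in OA condylar cartilage, with an interaction of 3.09 ± 0.60. KIF15, a spindle kinesin, was at 10.9, 11.3 and 11.1 CPM in control and 5.24, 3.27 and 3.02 CPM in OA superficial zone. KIF15 in condylar cartilage was at 13.4, 11.2 and 9.31 CPM in control and 39.4, 38 and 18.8 CPM in OA, with 2.78 ± 0.56. In each of these genes OA condylar cartilage 3 was the lowest of its group and still above every control.

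**Figure D3:**
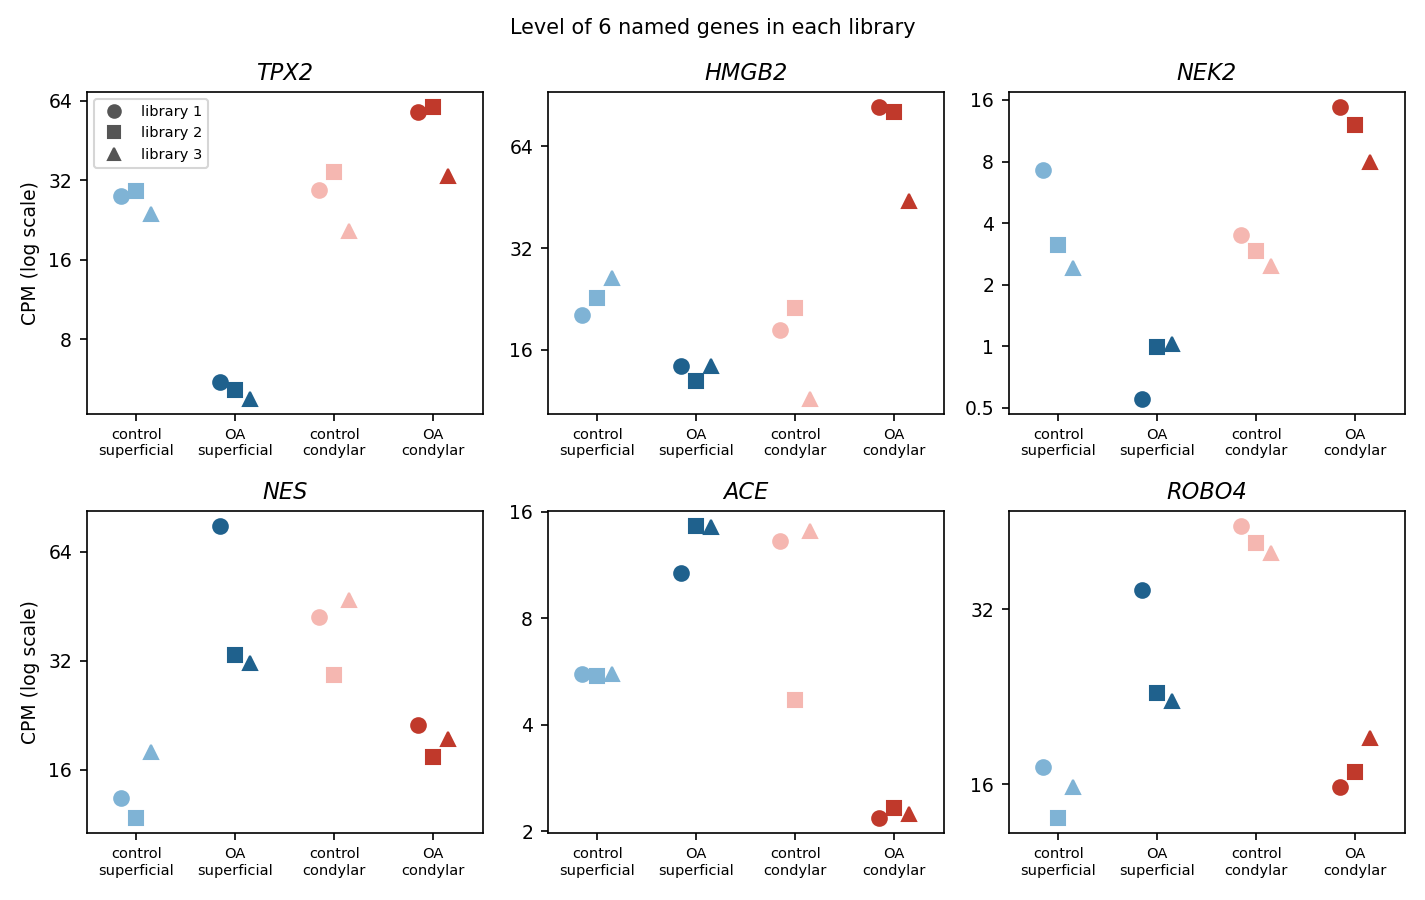
Each point is 1 library, with TMM-scaled CPM on a log axis for 6 genes in the 4 groups. TPX2, HMGB2 and NEK2 are lower in OA than in control superficial zone, NEK2 and HMGB2 are higher in OA than in control condylar cartilage, and NES, ACE and ROBO4 are lower in OA than in control condylar cartilage and higher in OA than in control superficial zone.

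DNA replication genes were also positive throughout. All 35 tested were positive, 24 at an unadjusted p under 0.05 (3.52% of all genes), and the median was 1.86 (2.45 without the libraries that stood apart, 1.79 to 2.47 with any single library left out). With OA all 35 were lower in the superficial zone, with a median log2 fold change of −1.52 and 26 separated from control (7.69% of all genes), and 31 were positive in the condylar cartilage, with a median of 0.42. The median of their log2 levels was 3.09, 2.87 and 2.57 in control and 1.44, 1.5 and 1.44 in OA superficial zone, and 3.22, 2.47 and 2.76 in control and 3.69, 3.60 and 2.62 in OA condylar cartilage. The OA superficial zone libraries are the lowest, and OA condylar cartilage 3 lies among the controls.

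CDC45, part of the replicative helicase, was at 5.79, 4.13 and 5.35 CPM in control and 0.414, 0.408 and 0.431 CPM in OA superficial zone, against 1.98, 2.86 and 1.46 CPM in control and 3.01, 4.26 and 2.31 CPM in OA condylar cartilage. The OA superficial zone libraries lay far below their controls, the condylar cartilage groups overlapped, and the interaction was 4.07 ± 0.74. MCM4, a subunit of the same helicase, was at 47.6, 40.6 and 24.7 CPM in control and 7.31, 6.65 and 5.71 CPM in OA superficial zone. MCM4 in condylar cartilage was at 37.4, 37.3 and 21.4 CPM in control and 54.3, 49.3 and 26 CPM in OA, with an interaction of 2.77 ± 0.59. CLSPN, a mediator of the replication checkpoint, was at 8.02, 11.1 and 6.92 CPM in control and 1.38, 1.58 and 0.97 CPM in OA superficial zone, against 8.97, 9.3 and 6.95 CPM in control and 15.7, 13.7 and 8.0 CPM in OA condylar cartilage, with 3.16 ± 0.58. RRM2, the regulated subunit of the enzyme that makes deoxyribonucleotides, was at 28.8, 18.4 and 13.1 CPM in control and 4.28, 2.33 and 3.07 CPM in OA superficial zone. RRM2 in condylar cartilage was at 16, 13.1 and 8.97 CPM in control and 32.6, 31.4 and 14 CPM in OA, with 3.41 ± 0.68. In all of these the superficial zone groups were apart and the condylar cartilage groups overlapped.

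The repressors E2F7 and E2F8, which switch off S-phase genes, were separated in both zones, as was DNA2, which is not on the list. E2F8 was at 6.23, 3.82 and 3.25 CPM in control and 2.21, 1.11 and 0.916 CPM in OA superficial zone, against 5.93, 4.83 and 2.8 CPM in control and 26.1, 26.5 and 10.4 CPM in OA condylar cartilage, with an interaction of 3.56 ± 0.80. E2F7 was at 2.56, 2.67 and 2.52 CPM in control and 1.52, 0.584 and 0.377 CPM in OA superficial zone. E2F7 in condylar cartilage was at 3.5, 2.12 and 2.8 CPM in control and 15.7, 15.4 and 5.63 CPM in OA, with 3.45 ± 0.86. DNA2, a nuclease and helicase that trims replication intermediates, was at 2.12, 2.67 and 1.05 CPM in control and 0.414, 0.70 and 0.431 CPM in OA superficial zone, against 2.13, 3.37 and 1.46 CPM in control and 8.6, 9.74 and 4.27 CPM in OA condylar cartilage, with 3.46 ± 0.88. The superficial zone values of E2F7 and DNA2 rest on levels of 0.377 to 2.67 CPM.

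Markers of blood-forming cells stood beside these genes in the condylar cartilage. The summed level of the 15 erythroid genes came to 101.3, 112 and 108 CPM in control and 341, 115 and 114 CPM in OA superficial zone, and to 190.5, 223 and 186 CPM in control and 2937, 2841 and 996 CPM in OA condylar cartilage. OA condylar cartilage 3 is the lowest of its group in this sum and in the medians of both cell division lists. In the superficial zone the erythroid sum of OA libraries 2 and 3 was 115 and 114 CPM against 101 to 112 CPM in control, while cell division genes were lower there. The part of blood-forming cells in the result was not tested.

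HMGB2 and ATP8B4, on neither list, were also among the 12 positive genes of smallest p. HMGB2, a chromatin protein abundant in dividing cells and described in the superficial zone of mouse cartilage, was at 20.3, 22.8 and 26.1 CPM in control and 14.4, 13 and 14.3 CPM in OA superficial zone. HMGB2 in condylar cartilage was at 18.2, 21.3 and 11.4 CPM in control and 84, 81.2 and 44.1 CPM in OA. It rose in the condylar cartilage (adjusted p = 0.037), the superficial zone groups were apart by a smaller step, and the interaction was 2.61 ± 0.52. ATP8B4, a phospholipid flippase expressed in myeloid cells, was at 9.13, 9.63 and 10.3 CPM in control and 15, 16.6 and 16.9 CPM in OA superficial zone, against 11.6, 9.23 and 7.74 CPM in control and 158, 161 and 64.4 CPM in OA condylar cartilage. It rose in the condylar cartilage by 3.56 ± 0.39 on the log2 scale (adjusted p = 0.0083), was higher with OA in the superficial zone too, and its interaction of 2.84 ± 0.55 was a difference in size and not in direction.

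**Figure D4:**
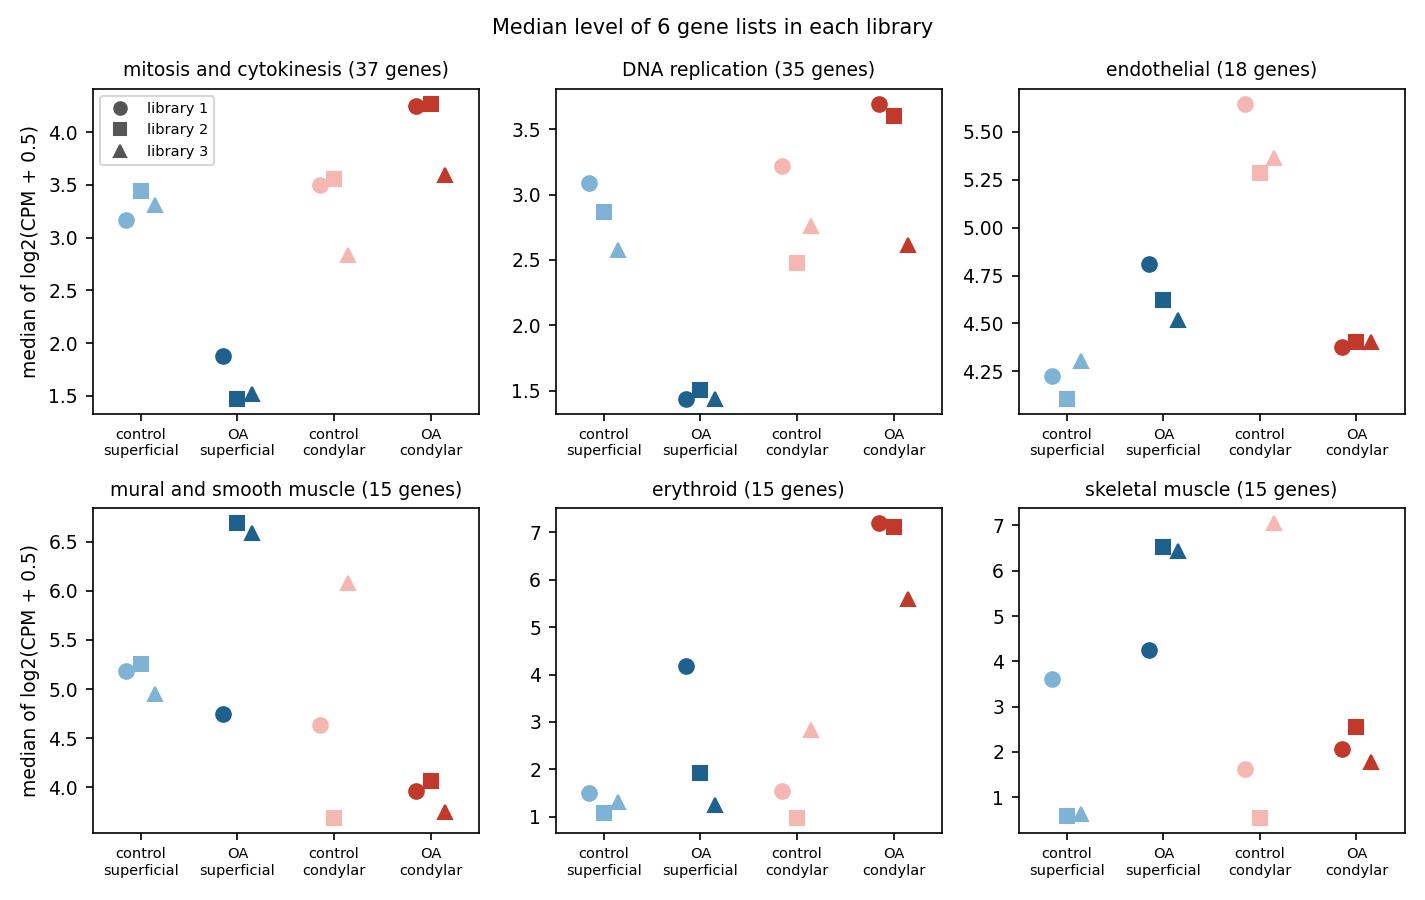
Each point is 1 library, placed at the median over a gene list of log2(CPM + 0.5). Mitosis medians in OA superficial zone lie at 1.47 to 1.88 and in the other groups at 2.83 to 4.27, and skeletal muscle is highest in control condylar cartilage 3 and OA superficial zone 2 and 3.

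Endothelial genes had the opposite sign. Of 18 tested, 17 were negative (50.9% of all genes), 10 of them at an unadjusted p under 0.05 against 5.24% of all genes, and the median was −1.44. They were lower with OA in the condylar cartilage in 16 of 18, the median log2 fold change being −0.73, and 9 separated from control (14.7% of all genes), and higher in the superficial zone in 16 of 18, with a median of 0.53 and 7 separated (10.1% of all genes). The zone difference of 0.90 in favour of condylar cartilage in control stood at −0.19 in OA. The list's median was −0.73 with scaling by library totals (all genes 0.50), −1.05 without the libraries that stood apart and −1.01 without control condylar cartilage 3 alone. Summed levels came to 588, 596 and 565 CPM in control and 904, 744 and 724 CPM in OA superficial zone, and to 1003, 720.3 and 997 CPM in control and 630.3, 636 and 581 CPM in OA condylar cartilage.

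ROBO4, a receptor that keeps vessels from leaking, was at 17.1, 14 and 15.8 CPM in control and 34.5, 22.9 and 22.2 CPM in OA superficial zone. ROBO4 in condylar cartilage was at 44.5, 41.7 and 39.9 CPM in control and 15.8, 16.8 and 19.2 CPM in OA. The groups did not overlap in either zone, OA superficial zone 1 was above its partners, and the interaction was −2.11 ± 0.42 (−1.78 without the libraries that stood apart). FLT4, the lymphatic growth factor receptor VEGFR-3, was at 7.35, 12.2 and 10.3 CPM in control and 30.2, 19.7 and 17 CPM in OA superficial zone, against 50.8, 35.4 and 41.5 CPM in control and 23.8, 21.9 and 22.2 CPM in OA condylar cartilage, again without overlap, and its interaction was −2.20 ± 0.49. MMRN2, an endothelial matrix protein, was at 19, 15.7 and 20.8 CPM in control and 49.3, 23.5 and 22.6 CPM in OA superficial zone. MMRN2 in condylar cartilage was at 56.4, 64.7 and 25.4 CPM in control and 17.3, 19.5 and 17.8 CPM in OA, without overlap, with −2.40 ± 0.62. PLVAP, which forms the diaphragms of fenestrated capillaries, was at 18, 20.1 and 16.8 CPM in control and 46.1, 18.6 and 21.1 CPM in OA superficial zone, against 69, 53.9 and 54.5 CPM in control and 33.1, 30.00 and 29.2 CPM in OA condylar cartilage, with −1.80 ± 0.51. For PLVAP the condylar cartilage groups were apart and the superficial zone groups overlapped. CD34, found on endothelium and on fibroblasts and progenitors, was at 65.8, 55.9 and 63.7 CPM in control and 92.9, 138 and 132 CPM in OA superficial zone. CD34 in condylar cartilage was at 74, 63.1 and 77.7 CPM in control and 40.2, 41.4 and 37.2 CPM in OA, without overlap in either zone. Its interaction was −1.76 ± 0.40, and −1.91 without the libraries that stood apart.

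Genes of mural and smooth muscle cells, which wrap vessels, were all negative (15 of 15, 4 at an unadjusted p under 0.05 against 5.24% of all genes), with a median of −1.33. The median was −1.22 without the libraries that stood apart, where 3 of 15 were positive, and −0.85 without control condylar cartilage 3 alone. MCAM, an adhesion molecule of pericytes and endothelium, was at 35.8, 37.7 and 28.2 CPM in control and 57, 47.4 and 52.3 CPM in OA superficial zone, against 27.7, 19.6 and 31.9 CPM in control and 13.5, 13.2 and 12.9 CPM in OA condylar cartilage, without overlap in either zone, and its interaction was −1.66 ± 0.43. MYH11, the smooth muscle myosin, was at 162, 90.8 and 115 CPM in control and 179, 271 and 274 CPM in OA superficial zone. MYH11 in condylar cartilage was at 43.6, 37.5 and 81.4 CPM in control and 41.4, 47.8 and 31.1 CPM in OA. The MYH11 groups were apart in the superficial zone and overlapped in the condylar cartilage, and the interaction was −1.40 ± 0.58. KCNJ8, a potassium channel of pericytes, had −1.46 ± 0.63, and DES, the intermediate filament of all muscle, had −6.89 ± 2.33. The median log2 level of the mural list was 6.69 and 6.59 in OA superficial zone 2 and 3 and 6.08 in control condylar cartilage 3, the 3 libraries with the highest summed skeletal muscle levels, given below. Skeletal muscle's part in the result was not tested.

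Other genes among the 12 negative ones of smallest p are not on the endothelial list, though some are found in vessels. NES, the intermediate filament nestin of new vessels and progenitors, was at 13.4, 11.8 and 17.9 CPM in control and 75.5, 33.2 and 31.5 CPM in OA superficial zone, against 42.3, 29.3 and 47.1 CPM in control and 21.3, 17.3 and 19.5 CPM in OA condylar cartilage, without overlap, with an interaction of −2.93 ± 0.56. ACE, the angiotensin-converting enzyme of endothelium, was at 5.57, 5.5 and 5.56 CPM in control and 10.8, 14.6 and 14.5 CPM in OA superficial zone. ACE in condylar cartilage was at 13.2, 4.69 and 14.1 CPM in control and 2.18, 2.32 and 2.24 CPM in OA. The ACE groups did not overlap in either zone, control condylar cartilage 2 stood below its partners, and the interaction was −3.44 ± 0.66 (−3.32 without the libraries that stood apart). ANGPTL4, an inhibitor of lipoprotein lipase induced by hypoxia and fasting, was at 2.12, 0.84 and 3.25 CPM in control and 13.4, 5.14 and 4.53 CPM in OA superficial zone, against 8.97, 11.1 and 3.59 CPM in control and 1.67, 1.16 and 2.64 CPM in OA condylar cartilage, with −4.11 ± 0.98. SEMA3B, a secreted semaphorin, was at 24.8, 24.4 and 17.1 CPM in control and 70.4, 44.8 and 45.5 CPM in OA superficial zone. SEMA3B in condylar cartilage was at 19.6, 16.4 and 26.1 CPM in control and 9.21, 13.8 and 10.4 CPM in OA, without overlap, with −2.30 ± 0.48.

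CRABP2, which carries retinoic acid to its nuclear receptor, fell in the condylar cartilage by 1.92 on the log2 scale (adjusted p = 0.029). Its level was 21.6, 20.7 and 23.9 CPM in control and 29.1, 20.7 and 20.6 CPM in OA superficial zone, against 28.9, 29.8 and 48.7 CPM in control and 9.15, 10.1 and 9.36 CPM in OA condylar cartilage. The superficial zone groups overlapped with an effect of 0.17 ± 0.32, and the interaction was −2.09 ± 0.46. ARHGAP22, a Rac GTPase regulator, was at 4.56, 6.49 and 3.98 CPM in control and 32.3, 21.7 and 23.4 CPM in OA superficial zone. ARHGAP22 in condylar cartilage was at 5.17, 7.18 and 2.02 CPM in control and 2.68, 2.82 and 1.83 CPM in OA. For ARHGAP22 the superficial zone groups were far apart and the condylar cartilage groups overlapped, and the interaction was −3.5 ± 0.72. SCRN1, a regulator of exocytosis, was at 17.4, 12.7 and 20.3 CPM in control and 47.5, 40.4 and 41.2 CPM in OA superficial zone, against 10.5, 6.88 and 12 CPM in control and 5.53, 4.87 and 6.78 CPM in OA condylar cartilage, without overlap, with −2.10 ± 0.50. C17orf50, of which no role is given here, was at 8.35, 10.7 and 9.23 CPM in control and 39.7, 15.9 and 16 CPM in OA superficial zone. C17orf50 in condylar cartilage was at 7.45, 6.01 and 9.53 CPM in control and 3.68, 4.15 and 2.85 CPM in OA, with −2.72 ± 0.61.

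TAPBP, the tapasin that loads peptides on MHC class I, had the smallest p of the negative genes and a value that rests on an absence. It had 0 counts in all 3 control superficial zone libraries, 7.18, 2.04 and 5.88 CPM in OA superficial zone, 6.54, 3.0 and 8.08 CPM in control and 14.8, 12.6 and 9.83 CPM in OA condylar cartilage. It rose in the superficial zone (adjusted p = 0.029), where the OA mean was at least 59.1-fold higher than the level of 3 counts over the control group. In the condylar cartilage the groups were apart and the effect was 1.01 ± 0.51. The fitted interaction of −8.41 depends on the prior count and is no bound.

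In 126 genes (0.873%) every OA library lay above every control in the condylar cartilage and below in the superficial zone, and in 123 genes (0.852%) the reverse held. Near-duplicates were entered as separate libraries in these counts. Separation in the same direction in both zones was seen in 400 genes upwards (2.77%) and 187 downwards (1.3%). With library totals in place of TMM the opposite sets held 289 and 34 genes, so their balance depends on the scaling. Without the libraries that stood apart they held 417 and 359 of the 14438 genes. Groups with fewer libraries separate more easily, so that rise cannot be credited to the libraries left out. Mitosis and replication lists held 5 and 4 of the first set, and the endothelial list 5 of the second.

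Among named genes of the second set, F2RL1, the protease-activated receptor PAR2, was at 0.557, 0.382 and 0.315 CPM in control and 3.04, 0.817 and 1.02 CPM in OA superficial zone, against 2.74, 1.32 and 1.91 CPM in control and 0.781, 1.16 and 0.678 CPM in OA condylar cartilage, levels of at most 3.04 CPM, with an interaction of −3.40 ± 1.01. NOX4, an oxidase that makes hydrogen peroxide, was at 2.0, 2.52 and 2.73 CPM in control and 4.28, 5.66 and 6.79 CPM in OA superficial zone. NOX4 in condylar cartilage was at 1.67, 1.54 and 2.36 CPM in control and 0.614, 1.33 and 0.61 CPM in OA, with −2.33 ± 0.70. LAMA1, a laminin chain of basement membranes, was at 3.12, 0.917 and 1.99 CPM in control and 4.97, 4.73 and 5.44 CPM in OA superficial zone, against 11.6, 12.52 and 21.1 CPM in control and 9.15, 10.2 and 4.61 CPM in OA condylar cartilage, with −2.41 ± 0.75. Each of these stays at low levels, with LAMA1 the highest in condylar cartilage. AFAP1L2, an adaptor of Src kinase, was at 20.3, 16.9 and 22.3 CPM in control and 45.3, 42.7 and 37.2 CPM in OA superficial zone. AFAP1L2 in condylar cartilage was at 43.5, 26.4 and 68.2 CPM in control and 20.04, 21 and 23.1 CPM in OA, with −2.18 ± 0.54. KLHL30, a Kelch protein found in muscle, was at 3.56, 3.13 and 2.62 CPM in control and 14.6, 4.14 and 4.26 CPM in OA superficial zone, against 23.4, 20.7 and 27.1 CPM in control and 8.09, 9.57 and 12.4 CPM in OA condylar cartilage, with −2.73 ± 0.68. KLHL30 rests mainly on OA superficial zone 1 in the superficial zone, while AFAP1L2 is shifted in every library. Of the first set, ADGRG6, an adhesion receptor of Schwann cells and cartilage linked to scoliosis in human, was at 22.5, 49.6 and 35.8 CPM in control and 11.5, 19.4 and 17.4 CPM in OA superficial zone. ADGRG6 in condylar cartilage was at 16.9, 24 and 11.6 CPM in control and 39.5, 35.9 and 48.4 CPM in OA, with 2.56 ± 0.60. ADRA1D, an adrenaline receptor, was at 1.89, 5.73 and 1.99 CPM in control and 1.52, 1.28 and 0.701 CPM in OA superficial zone, against 0, 0.22 and 0 CPM in control and 0.223, 0.221 and 0.271 CPM in OA condylar cartilage, so its condylar cartilage step lies between 0 and 0.271 CPM.

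Markers of red cell precursors and neutrophils rose in the condylar cartilage in 10 of 15 and 11 of 19 genes (0.817% of all genes), and most had positive interactions. All 15 erythroid genes were positive, 5 of them at an unadjusted p under 0.05 against 3.52% of all genes. Their median was 1.93, and 5.07 without the libraries that stood apart. The median log2 fold change was 4.55 in the condylar cartilage and 2.02 in the superficial zone, the latter 0.29 without OA superficial zone 1, when the interaction's median was 3.98. FECH, the last enzyme of heme synthesis, was at 18.1, 15.6 and 15.3 CPM in control and 32, 19.3 and 17.4 CPM in OA superficial zone. FECH in condylar cartilage was at 10.2, 11.9 and 14.8 CPM in control and 146, 138 and 47.5 CPM in OA. ALAS2, the first enzyme of heme synthesis in red cells, was at 11.6, 5.58 and 4.72 CPM in control and 40.6, 9.75 and 9.0 CPM in OA superficial zone, against 9.88, 4.69 and 18.6 CPM in control and 469, 439 and 146 CPM in OA condylar cartilage. ANK1, the ankyrin of the red cell membrane, was at 9.24, 7.72 and 7.86 CPM in control and 30.2, 3.27 and 3.13 CPM in OA superficial zone. ANK1 in condylar cartilage was at 6.69, 5.27 and 6.62 CPM in control and 226, 219 and 67.1 CPM in OA. In all 3 the condylar cartilage groups were apart and OA superficial zone 1 was the highest of the superficial zone. Their interactions were 2.33 ± 0.63, 3.0 ± 1.04 and 3.57 ± 1.05, and 2.96, 5.07 and 6.01 without the libraries that stood apart. TFRC, the transferrin receptor, which dividing cells also use, had 1.62 ± 0.64.

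The neutrophil and marrow list was positive in 17 of 19, with a median of 2.34, or 2.42 with groups at 0 set to 3 counts, and of 6.80 without the libraries that stood apart. At an unadjusted p under 0.05 it had 2 positive members (3.52% of all genes) and 1 negative member (5.24%). Its members were mostly rare in controls: 10, 7 and 1 of them were at 0 in the control condylar cartilage libraries and none in OA condylar cartilage. S100A9, a calprotectin subunit of neutrophils, was at 0.223, 2.6 and 0.944 CPM in control and 29.9, 2.04 and 1.78 CPM in OA superficial zone, against 0, 0 and 1.46 CPM in control and 279, 273 and 84.3 CPM in OA condylar cartilage. It rose in the condylar cartilage (adjusted p = 0.026), and OA superficial zone 1 stood far above its partners. The interaction was 5.0 ± 1.90, a value that rests on controls at or near 0. CXCR1, an interleukin-8 receptor, had 2.26 ± 1.18, and FPR2, a formyl peptide receptor, had 4.36 ± 1.97. MMP9, the gelatinase that osteoclasts also make, was at 117.2, 107 and 261 CPM in control and 1077, 88.7 and 84.8 CPM in OA superficial zone. MMP9 in condylar cartilage was at 1913, 2278 and 1503 CPM in control and 1014, 969.9 and 1285 CPM in OA and went the other way with −2.59 ± 1.09, a sign set by OA superficial zone 1, without which it was 0.16.

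Genes of eosinophils, basophils and mast cells had the highest median of the 39 lists, 4.07 with 6 of 7 positive, or 2.88 with groups at 0 set to 3 counts. None of the 7 had an interaction at an unadjusted p under 0.05. Of the 7, 4 rose in the condylar cartilage (0.817% of all genes). Their summed level came to 3.23, 3.13 and 2.73 CPM in control and 23.6, 6.42 and 3.93 CPM in OA superficial zone, and to 8.67, 6.08 and 7.18 CPM in control and 288, 284 and 78 CPM in OA condylar cartilage, and without the libraries that stood apart the median was 7.06. Megakaryocyte genes were positive in 6 of 7 with a median of 2.07 (2.54 without those libraries), among them NFE2, a transcription factor of platelet formation, with 3.03 ± 0.93, and TUBB1, the platelet tubulin, with 3.92 ± 1.75. The negative member was VWF, which endothelium also makes, with −2.07 ± 0.90. Macrophage genes were positive in 9 of 19 with a median of −0.04, and in 13 of 19 with 0.58 without the libraries that stood apart. LYZ, lysozyme, was at 11.2, 16 and 19.4 CPM in control and 26.6, 22.1 and 19.8 CPM in OA superficial zone, against 22, 26.7 and 28.4 CPM in control and 278, 282 and 108 CPM in OA condylar cartilage, rose in the condylar cartilage (adjusted p = 0.017) and had 2.30 ± 0.58. CSF1R, the receptor of the macrophage growth factor, was at 55, 48.7 and 60.8 CPM in control and 299, 107 and 108 CPM in OA superficial zone. CSF1R in condylar cartilage was at 168, 97.8 and 287 CPM in control and 136, 139 and 157 CPM in OA, with −2.22 ± 0.69. TREM2 and CD68, a lipid receptor and a lysosomal protein of macrophages, had −2.14 ± 0.82 and −2.01 ± 0.78. CSF1R, TREM2 and CD68 were each highest in OA superficial zone 1 among the superficial zone libraries. Lymphocyte genes were positive in 9 of 11 with a median of 0.78 (2.59 without those libraries), and none was under an unadjusted p of 0.05. VCAM1, an adhesion molecule of marrow stroma and inflamed vessels, was at 1.78, 2.98 and 2.83 CPM in control and 4.42, 3.09 and 5.28 CPM in OA superficial zone, against 1.82, 1.39 and 4.49 CPM in control and 28.9, 26.6 and 13.7 CPM in OA condylar cartilage, rose in the condylar cartilage (adjusted p = 0.026) and had 2.25 ± 0.76.

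Skeletal muscle genes had the largest negative median of the 39 lists, and it followed individual libraries. All 15 were negative, 15 of them at an unadjusted p under 0.05 against 5.24% of all genes. Their median was −7.80, and −3.08 without the libraries that stood apart. The summed level came to 372, 60.1 and 47.1 CPM in control and 577, 2785 and 2767 CPM in OA superficial zone, and to 81.2, 78.3 and 4709 CPM in control and 108, 154 and 89.4 CPM in OA condylar cartilage. Control condylar cartilage 3 and OA superficial zone 2 and 3 carry the values. NEB, the giant ruler protein of muscle thin filaments, was at 61.8, 7.18 and 5.98 CPM in control and 125, 600.0 and 592 CPM in OA superficial zone. NEB in condylar cartilage was at 10.5, 19 and 968 CPM in control and 19.5, 27.6 and 19.6 CPM in OA, with an interaction of −7.80 ± 2.49 and of −4.03 without the libraries that stood apart. TNNT3, a fast troponin, MYBPC1, a myosin-binding protein, and PYGM, the glycogen phosphorylase of muscle, had −8.07 ± 2.51, −4.95 ± 1.60 and −4.22 ± 1.39. How much muscle each piece of tissue held was not tested.

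Medians of the cartilage and hypertrophy lists depended on the libraries that stood apart. The cartilage matrix median was −0.58 over 17 genes with 4 positive, and 0.16 without that pair, and the hypertrophy median was −0.95 over 18 genes with 5 positive, and then −0.12. Each library of the pair moved them the opposite way: without OA superficial zone 1 alone the medians were 0.59 (15 of 17 positive) and 0.17 (12 of 18), and without control condylar cartilage 3 alone −1.15 and −1.16. COL2A1 was at 6520, 2849 and 12425 CPM in control and 51233, 2511 and 2583 CPM in OA superficial zone, against 42753, 56682 and 935 CPM in control and 13503, 12912 and 25029 CPM in OA condylar cartilage. Control condylar cartilage 3 and OA superficial zone 1 lie outside their groups, and the interaction of −2.70 ± 1.88 became 0.17 without them. ACAN, the aggrecan core protein, was at 6103, 5860 and 4664 CPM in control and 15133, 2012 and 2031 CPM in OA superficial zone. ACAN in condylar cartilage was at 9364, 11297 and 435 CPM in control and 3141, 3056 and 4657 CPM in OA, with −1.49 ± 1.43 and then 0.07. SOX9, the master regulator of chondrocytes, had −0.77 ± 1.14 and then 0.08. COL10A1, the collagen of hypertrophic cartilage, was at 316, 37 and 1248 CPM in control and 1845, 184 and 193 CPM in OA superficial zone, against 10376, 15025 and 183 CPM in control and 2085, 1979 and 3159 CPM in OA condylar cartilage, with −2.65 ± 2.09 and then −0.74. IHH, the hedgehog signal of prehypertrophic chondrocytes, had −3.41 ± 2.11 and then −0.23, and GDF5, a joint-forming growth factor, had 0.38 ± 1.33.

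Some matrix genes kept their sign. CRTAC1, a cartilage acidic protein, was at 18.3, 13.8 and 12 CPM in control and 13.7, 8.05 and 6.36 CPM in OA superficial zone. CRTAC1 in condylar cartilage was at 1.22, 1.83 and 2.8 CPM in control and 6.81, 4.98 and 3.73 CPM in OA, with 1.80 ± 0.64 and 2.68 without the libraries that stood apart. VIT, vitrin, was at 20.7, 20.4 and 23.7 CPM in control and 16.7, 15.1 and 16.7 CPM in OA superficial zone, against 22, 15.3 and 38.1 CPM in control and 42.9, 39 and 65.1 CPM in OA condylar cartilage, without overlap in either zone, with 1.48 ± 0.55 and 1.98. MATN4, a matrilin, had −1.40 ± 0.56, and CHST3, a chondroitin sulfotransferase, had −1.96 ± 0.90, which turned to 0.28. PRG4 was at 237, 167 and 279.9 CPM in control and 239, 445 and 454 CPM in OA superficial zone. PRG4 in condylar cartilage was at 18.9, 32.1 and 40.7 CPM in control and 109, 121 and 61.4 CPM in OA. It was higher with OA in the condylar cartilage without overlap, the superficial zone groups overlapped, and the interaction was 0.93 ± 0.62. TNC, tenascin-C, and the fibrous collagen genes COL1A1 and COL3A1 had 0.31 ± 0.68, −2.03 ± 0.93 and −0.38 ± 0.67, of which COL1A1 turned to 0.14 without the libraries that stood apart and COL3A1 to 0.23 with library totals (all genes 0.50).

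The osteoblast and osteocyte list had a median of −1.29 with 4 of 17 positive, and the osteoclast list −1.49 with 1 of 10 positive. Without the libraries that stood apart these medians were 0.21 and 0.24. BGLAP, osteocalcin, was at 21.2, 10.8 and 11.2 CPM in control and 336, 17.6 and 15.7 CPM in OA superficial zone, against 165, 84.5 and 586 CPM in control and 273, 246 and 311 CPM in OA condylar cartilage, so OA superficial zone 1 alone lay above control in its zone, and the interaction of −3.58 ± 1.42 became 1.01 without the libraries that stood apart. SIGLEC15, an osteoclast fusion receptor, and ITGB3, the osteoclast integrin, had −2.66 ± 0.95 and −1.81 ± 0.72, with OA superficial zone 1 at 70.0 and 219 CPM against 7.59 to 10.3 and 66.0 to 66.1 CPM in its partners. PHEX, an osteocyte endopeptidase, was at 12.2, 8.86 and 10.6 CPM in control and 28.6, 20.8 and 20.8 CPM in OA superficial zone. PHEX in condylar cartilage was at 412, 353 and 479 CPM in control and 261, 255 and 382 CPM in OA, apart in the superficial zone in every library, with −1.60 ± 0.46 and −1.21 without the libraries that stood apart. DMP1, a mineral-binding protein of osteocytes, had −1.63 ± 0.71. RUNX2, the master regulator of osteoblasts and hypertrophy, was at 940.1, 885 and 979 CPM in control and 325, 532 and 527 CPM in OA superficial zone, against 1401, 1427 and 1062 CPM in control and 1230, 1262 and 1503 CPM in OA condylar cartilage. It was lower with OA in the superficial zone without overlap, did not separate in the condylar cartilage, and had 1.21 ± 0.49.

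Degrading enzymes leaned to the negative side, with 3 of 23 proteases positive, 5 negative at an unadjusted p under 0.05 (5.24% of all genes) and a median of −0.69. That median was −0.21 with library totals (all genes 0.50) and −0.33 without the libraries that stood apart. PLAU, the urokinase plasminogen activator, was at 26.7, 14.5 and 18.6 CPM in control and 24.8, 54.8 and 53.3 CPM in OA superficial zone. PLAU in condylar cartilage was at 36.8, 27.7 and 37.4 CPM in control and 18.6, 18.4 and 18.6 CPM in OA, with −1.86 ± 0.55 and −2.20 without those libraries. MMP11 and MMP28, metalloproteinases of stroma and epithelium, had −1.76 ± 0.63 and −2.73 ± 0.98. The enzymes most studied in OA had smaller values, with −0.5 ± 0.71 for the collagenase MMP13, −0.33 ± 1.05 for the stromelysin MMP3, −0.62 ± 0.48 and −0.98 ± 0.48 for the aggrecanases ADAMTS4 and ADAMTS5. Their inhibitors TIMP1 and TIMP3 had −0.42 ± 0.48 and −0.55 ± 0.70. With library totals MMP13, MMP3 and TIMP1 turned to 0.22, 0.09 and 0.19, still below the 0.50 of all genes in that setting. Without the libraries that stood apart MMP13 was 0.28, above the median of 0.03 over all genes. With single libraries left out MMP13 and MMP3 reached 0.17 and 0.15, so their sign was not stable. ADAMTS5 was at 30.7, 21.4 and 24.6 CPM in control and 77.6, 42.2 and 41.9 CPM in OA superficial zone, against 32.7, 27.4 and 39.1 CPM in control and 38, 36 and 41.2 CPM in OA condylar cartilage. It was higher with OA in the superficial zone without overlap and overlapped in the condylar cartilage.

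Signalling lists had medians between −0.47 and 0.12, several of which turned sign without the libraries that stood apart. FGF signalling had a median of −0.47 (5 of 17 positive), and of −0.38 without those libraries. DUSP6 and SPRY4, feedback inhibitors of the ERK pathway that FGF induces, had −1.80 ± 0.57 and −1.5 ± 0.52. DUSP6 was at 21.9, 16.4 and 15.4 CPM in control and 51.2, 20.5 and 21.1 CPM in OA superficial zone. DUSP6 in condylar cartilage was at 49.7, 34.8 and 56.8 CPM in control and 25.6, 23.7 and 29.6 CPM in OA. FGF1, an acidic FGF ligand, was at 4.01, 3.06 and 3.77 CPM in control and 15.7, 7.88 and 8.19 CPM in OA superficial zone, against 19.6, 16.3 and 44.6 CPM in control and 18.6, 16.7 and 22.6 CPM in OA condylar cartilage, with −2.12 ± 0.67. FGF18, a ligand that promotes cartilage growth, had 3.41 ± 1.33, but its condylar cartilage levels were 0, 0 and 0.112 CPM in control and 0.726, 0.885 and 0.542 CPM in OA. TGF-beta and BMP signalling had a median of 0.12 (21 of 35 positive), and of 0.26 without the libraries that stood apart. CHRDL1, a BMP antagonist, was at 23.6, 24.1 and 22 CPM in control and 14.4, 36.5 and 34 CPM in OA superficial zone. CHRDL1 in condylar cartilage was at 0.608, 2.71 and 2.92 CPM in control and 9.77, 11.8 and 9.15 CPM in OA, with 2.11 ± 0.74. GDF10, a TGF-beta family ligand, had 2.52 ± 1.00, BMP2, a bone-forming ligand, −1.51 ± 0.66, and TGFBR3, a co-receptor, 0.96 ± 0.43. CMPK2, an interferon-induced mitochondrial kinase, had 2.80 ± 0.98 in an interferon response list with a median of −0.41, or 0.05 without the libraries that stood apart. PTGS2, the inducible cyclooxygenase, and VEGFA, the vessel growth factor, had 1.70 ± 0.85 and −0.54 ± 0.68, the latter 0.13 with library totals (all genes 0.50). Wnt signalling (8 of 26 positive), Hedgehog and PTHrP signalling (5 of 15) and inflammatory cytokines and NF-kB targets (5 of 14) had medians of −0.25, −0.36 and −0.19. Without the libraries that stood apart these were 0.48 (16 of 26), 0.25 (12 of 15) and 0.34 (9 of 14).

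Energy metabolism lists were mostly negative. Hypoxia and glycolysis genes were positive in 7 of 29 with a median of −0.58 (0.07 with library totals, all genes 0.50), and nuclear oxidative phosphorylation genes in 4 of 34 with −0.56 (−0.10). Without the libraries that stood apart the medians were −0.42 and −0.61. PFKM, the muscle phosphofructokinase, was at 59.3, 43.6 and 42.4 CPM in control and 80.05, 105 and 108 CPM in OA superficial zone, against 58.7, 55.8 and 115 CPM in control and 36.8, 37.8 and 38.4 CPM in OA condylar cartilage, without overlap in either zone, with −1.96 ± 0.52. HK2, a hexokinase, ALDOA, an aldolase, and NDRG1, a hypoxia-induced gene, had −1.40 ± 0.49, −1.34 ± 0.48 and −1.49 ± 0.60. ATP5MC1, a ring subunit of ATP synthase, was at 31.6, 25.7 and 21.8 CPM in control and 40.7, 37.2 and 36.2 CPM in OA superficial zone. ATP5MC1 in condylar cartilage was at 33.6, 44.2 and 64 CPM in control and 19.8, 21.9 and 23.2 CPM in OA, without overlap, with −1.66 ± 0.47. COX4I1 and UQCRC1, subunits of complexes IV and III, had −1.22 ± 0.48 and −1.16 ± 0.52. Several of these genes are also expressed in skeletal muscle, whose summed level is given above and whose part was not tested.

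Stress, ribosome, clock and sterol lists had medians of 0.03 (unfolded protein response), 0.01 (heat shock proteins), 0.09 (cytosolic ribosomal proteins), 0.10 (circadian clock) and 0.32 (sterol synthesis). Without the libraries that stood apart they were −0.38 (4 of 19 positive), −0.52 (1 of 16), −0.07, 0.21 and 0.18, and 4 of 16 heat shock genes were negative at an unadjusted p under 0.05 with all samples (5.24% of all genes). ASNS, asparagine synthetase, a target of the amino acid stress response, was at 3.34, 3.29 and 3.98 CPM in control and 3.86, 1.17 and 1.24 CPM in OA superficial zone, against 5.02, 5.57 and 5.5 CPM in control and 34, 36.6 and 16.8 CPM in OA condylar cartilage. It was higher with OA in the condylar cartilage without overlap, the superficial zone groups overlapped, and the interaction was 2.84 ± 0.71 (3.87 without the libraries that stood apart). PEG3, an imprinted zinc finger gene, was at 31.1, 34.6 and 29.6 CPM in control and 12.8, 9.16 and 8.73 CPM in OA superficial zone. PEG3 in condylar cartilage was at 16.4, 14.5 and 5.95 CPM in control and 26, 25.3 and 16.5 CPM in OA, without overlap in either zone, with 2.33 ± 0.60. The clock genes ARNTL and NPAS2 had positive effects in both zones, of 1.92 ± 0.31 and 1.63 ± 0.32 in the superficial zone and 1.08 ± 0.31 and 0.60 ± 0.32 in the condylar cartilage, and interactions of −0.84 ± 0.44 and −1.03 ± 0.46.

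**Figure D5:**
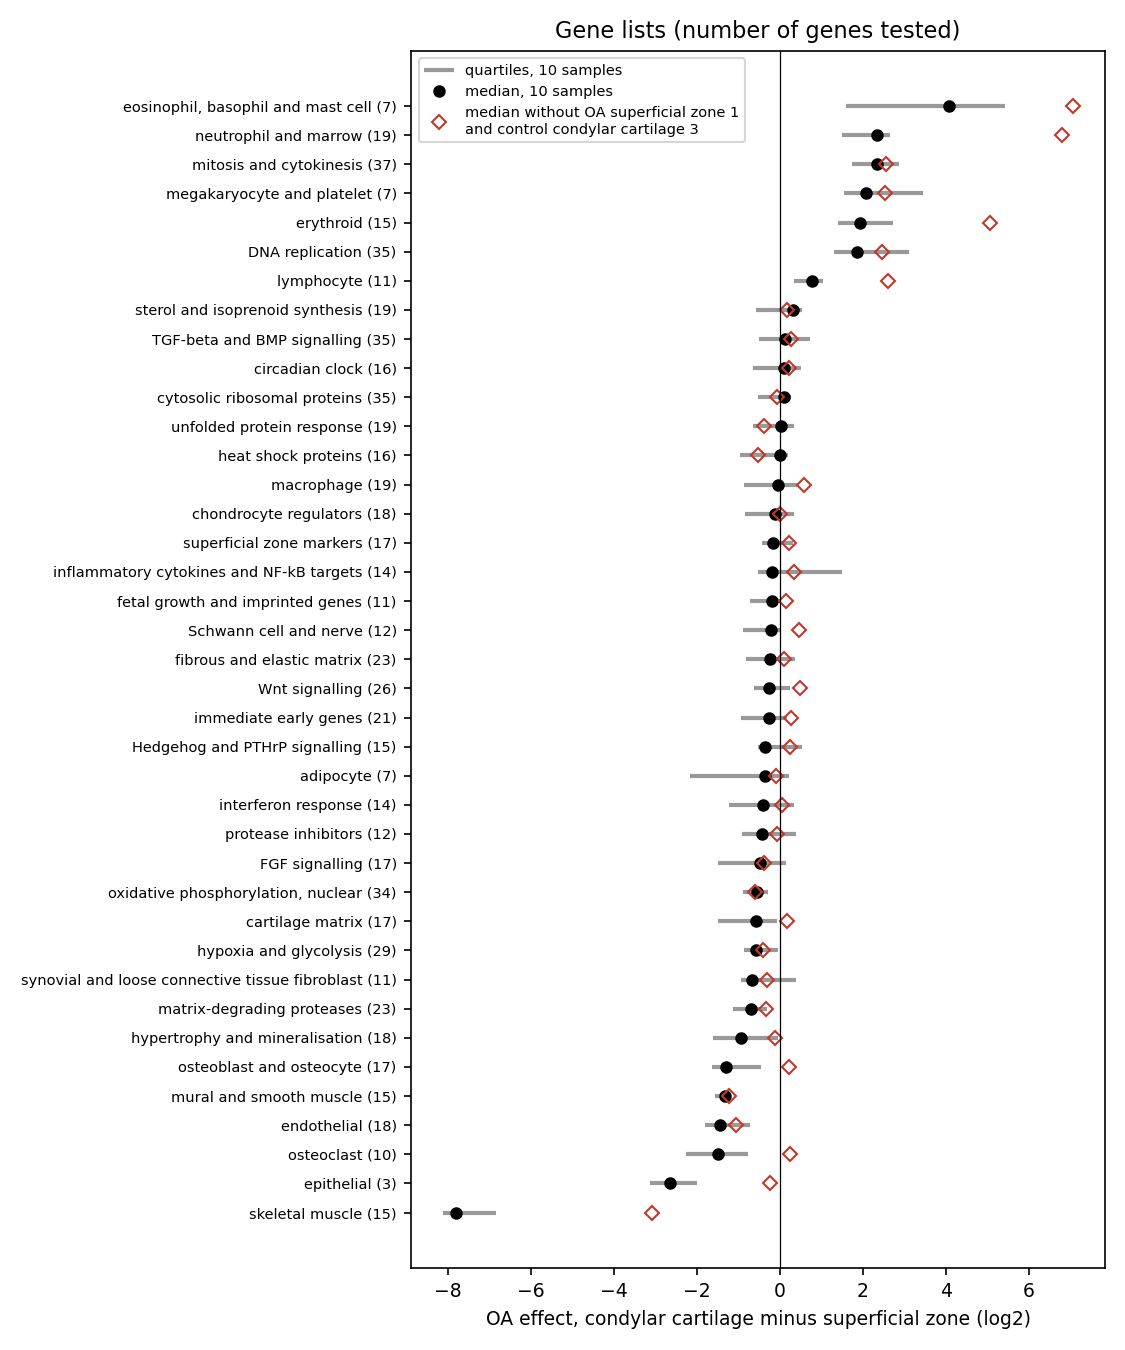
Black points give the median interaction of each of 39 gene lists with its quartiles (grey bars), and red diamonds the median without the pair of libraries that stood apart. Mitosis and replication medians lie at 2.33 and 1.86 and go to 2.56 and 2.45, while the skeletal muscle median goes from −7.80 to −3.08 and the osteoclast median from −1.49 to 0.24.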

How the data were processed

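RNA was measured by total RNA sequencing of 12 libraries of the rabbit temporomandibular joint. Per the labels' protocols, the kits were RNeasy Micro for extraction, QIAseq FastSelect for removal of ribosomal RNA and NEBNext Ultra II Directional for libraries. Per the submitters' processing notes, the tools included Salmon 1.1.0 and STAR 2.7.9a, beside Trim Galore 0.6.7, MultiQC 1.13, DESeq2 1.26.0 and StringTie 2.1.0, with the build OryCun2.0. The deposited table holds estimated counts per gene (expected counts, not whole), which the file headers call both normalised and raw; they were used as raw and rounded. The deposited TPM values and the deposited feature lengths per gene and library were not used in the tests, save the lengths in 1 alternative. The authors' table held 14621 genes, 13317 of them protein-coding. Symbols came from the table for 9813 genes and from RefSeq's gene table for 1075, and 3733 had none.

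The 12 libraries fell into 4 groups of 3. Near-duplicate libraries were summed, which left 10 samples. Genes were filtered with filterByExpr (minimum count of 10), scaled by TMM and tested with edgeR 4.0.16 in R 4.3.3, by a quasi-likelihood F test with the 4 groups as 1 factor. The contrast was the OA effect in condylar cartilage minus that in superficial zone, with Benjamini-Hochberg adjustment over 14438 genes and a threshold of 0.05. Printed levels are TMM-scaled CPM, list levels are medians of log2(CPM + 0.5), and SE is the size of the log2 change over the square root of F. Total counts, 7326255 to 16769536 per library, limit low genes most, and 3 counts served as the floor for groups at 0. Alternatives used 12 separate libraries, a replicate term, DESeq2 1.42.0, limma 3.58.1 (voom with sample weights), library totals, median-of-ratios factors, no filter, protein-coding genes alone, each library left out and both libraries that stood apart left out. The gene length offset and the floor for groups at 0 were added after seeing the data. The test was also run on simulated counts with known fold changes. These held no near-duplicates and no libraries that stood apart, so the run does not cover those features.

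Members and the 39 gene lists were chosen with earlier results of these data known, so counts over lists are descriptions. Genes were named by rule: the 12 protein-coding symbols of smallest p in each direction, up to 4 members of each list, 8 genes per direction whose groups did not overlap in opposite directions and whose mean was at least 1 CPM, and a panel of joint genes. Some genes that the rule takes are not reported here. COL2A1, ACTA1 and ACAN were also named as checks of single libraries. Promoter sequences were not used here. Counting is of uncertain precision for genes with near-identical copies, and the counting's use of strand is not given in the sources used here.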

Additional observations from a re-analysis of the deposited data

Results flagged for a closer look

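In several named genes every OA library lay on one side of control in the condylar cartilage and on the opposite side in the superficial zone. ROBO4 and CD34 were among them. The 16 listed here were the 8 genes per direction that the naming rule took from the 126 and 123 genes with that property. Their pattern therefore follows from the rule. The log2 interaction of the genes lower with OA in the condylar cartilage and higher in the superficial zone was −4.11 for ANGPTL4, −3.40 for F2RL1, −3.44 for ACE, −2.72 for C17orf50, −2.73 for KLHL30, −2.33 for NOX4, −2.18 for AFAP1L2 and −2.41 for LAMA1. The log2 interaction of the genes with the reverse pattern was 4.20 for NEK2, 3.56 for E2F8, 3.46 for DNA2, 3.45 for E2F7, 2.78 for KIF15, 3.09 for KIF14, 2.68 for ADRA1D and 2.56 for ADGRG6. The difference between zones was tested by edgeR for all of them, and the adjusted p ran from 0.245 (ACE) to 0.594 (ADRA1D), so none passed. For ADRA1D the condylar cartilage levels were 0, 0.220 and 0 CPM in control and 0.223, 0.221 and 0.271 CPM in OA.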

How the results depend on the processing

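The number of genes past the interaction test was 0 with edgeR on 10 samples, 98 with 12 separate libraries, 116 with DESeq2, 97 without OA superficial zone 1 and control condylar cartilage 3, and 0 with limma-voom, library totals, median-of-ratios factors, no filter, protein-coding genes alone, the gene length offset or any single library left out. Whether replicate numbers pair the samples could not be told. Deviations of same-numbered superficial zone and condylar cartilage libraries correlated at 0.017, 0.232 and −0.289 in control and 0.328, −0.146 and 0.307 in OA. Deviations from the mean of 3 libraries sum to 0 and near-duplicates deviate alike, so these values cannot decide it. With the replicate block on 12 separate libraries 90 genes passed for the interaction, 323 for OA in the condylar cartilage and 129 in the superficial zone. Genes past the OA test in the condylar cartilage numbered 441 with separate libraries, 351 with DESeq2, 1540 with limma-voom, 667 without both libraries and 0 to 224 with single libraries left out, among them 0, 6 and 204 without control condylar cartilage 1, 2 and 3, 37, 49 and 67 without control superficial zone 1, 2 and 3, and 224 without OA superficial zone 1. In the superficial zone they numbered 163, 288, 0 and 285 in the same settings, 0 with library totals, 0 with protein-coding genes alone and 0 to 51 with single libraries left out, the highest without control condylar cartilage 3, with 0 without any 1 of the control superficial zone libraries. Genes without overlap in opposite directions numbered 289 (condylar cartilage higher) and 34 (lower) with library totals. Without both libraries they numbered 417 and 359, where smaller groups separate more easily. The endothelial median was −0.73 with library totals, −1.05 without both libraries and −1.54 to −1.01 with single libraries left out.

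Among 2508 values, of 114 named genes under 22 alternatives, 26 changed sign, in 14 genes, and the other 100 genes kept their sign throughout. With library totals the interaction was 0.22 for MMP13, 0.095 for MMP3, 0.19 for TIMP1, 0.13 for VEGFA and 0.23 for COL3A1. The median of all genes was 0.50 in that setting, so each of these stayed below it. Without both libraries it was 0.17 for COL2A1, 0.065 for ACAN, 0.079 for SOX9, 0.28 for MMP13, 0.14 for COL1A1, 0.055 for MMP9, 1.01 for BGLAP and 0.28 for CHST3. With single libraries left out it ran from −3.27 to 0.70 for COL2A1, −2.05 to 0.59 for ACAN, −1.31 to 0.57 for SOX9, −1.09 to 0.17 for MMP13, −1.08 to 0.15 for MMP3, −0.84 to 0.19 for VEGFA, −0.66 to 0.089 for COL3A1, −0.88 to 2.08 for GDF5, −4.59 to 0.28 for IHH, −3.03 to 0.16 for MMP9 and −2.08 to 0.36 for CHST3. The cause was not tested. Some fits leave an OA group with 1 sample, which is assumed to vary like the other groups. These are the fits without OA superficial zone 1, alone or with control condylar cartilage 3, and the fit without OA condylar cartilage 3. Groups of 2 and 3 samples limit all of these counts, and a p that misses the threshold does not show that the zones responded alike. The planned description of promoter motifs was not run.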
